A study of Mus musculus with 18 samples.

Results

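The 10 genes of plasma lipoprotein formation followed here in mouse liver were the apolipoprotein genes Apoa1, Apoa2, Apoa4, Apoa5, Apob, Apoc1, Apoc2, Apoc3 and Apoe, and Mttp, which encodes the microsomal triglyceride transfer protein. They were taken by name, as 10 of the 37315 genes in the count table, with earlier results of these data known. Polyadenylated RNA of whole liver was sequenced in 18 libraries from mice on a C57BL/6J background, with 3 libraries in each of 6 groups. At 2, 8 and 16 weeks of age, 1 group received L-asparaginase into the peritoneal cavity (Elspar, 3 international units per gram of body weight, once a day) and 1 group received the same volume of phosphate-buffered saline (PBS). There were 7 injections at 2 and 16 weeks and 8 at 8 weeks, and liver was taken 7.5 h after the last. Asparaginase is a leukaemia drug that breaks down circulating asparagine, and the design asks how liver gene expression responds to it at each age. Every group held both sexes by its labels, 2 libraries of one and 1 of the other. Males were the 2 in the PBS group at 2 weeks and in the asparaginase groups at 8 and 16 weeks. The other groups held 2 females, so labelled sex was unbalanced between treatments at every age. The main tests hold a term for sex, but the levels, marker sums and separations of libraries below do not.

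Apolipoproteins are the proteins of plasma lipoprotein particles. In the hepatocyte, the microsomal triglyceride transfer protein loads lipid onto a single molecule of apolipoprotein B as it enters the endoplasmic reticulum, and the particle is secreted as very low density lipoprotein (VLDL). The small exchangeable apolipoproteins move between VLDL and high density lipoprotein (HDL) in plasma, where they set how fast lipases act on the particle and how fast receptors take up its remnant.

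Library totals ran from 24690871 to 46949361 counts, and the lowest count of any of the 10 genes in any library was 666 (Apoa4). Levels below are CPM, the counts of a gene scaled to a common library size, with library sizes adjusted by TMM, a method that centres the bulk of genes between libraries. That scaling matters here, because the major urinary protein genes took 0.0460% to 0.579% of counts at 2 weeks but 5.39% to 47.9% in adults, and the TMM factors ran from 0.630 to 1.41. In 3 of the 2-week libraries (PBS libraries 1 and 2 and asparaginase library 3), Xist and 4 Y-linked genes were both above 10 CPM, so transcripts of both sexes were present in them. Whether these libraries held RNA of more than 1 mouse is not given in the labels. The hepatocyte markers were present in all libraries: the sum over 7 of them (Alb, Ttr, Serpina1c, Tat, Cps1, Fgb and Ahsg) was between 63469 and 114740 CPM. In whole liver, fewer cells of a type and less RNA per cell cannot be told apart. The labels do not say that mice came from separate litters or cages, so p-values measure only the spread between these mice.

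The 10 genes spanned a wide range of levels. Per kilobase of merged exons, Apoa2, a structural protein of HDL, stood highest, at 5888 ± 1222 CPM per kb (mean ± SD, n = 18), followed by Apoe at 4534 ± 809 and Apoa1, the main protein of HDL, at 3291 ± 942 CPM per kb. Apoc1 reached 2375 ± 479 CPM per kb, below Apoa1 by less than the SD of Apoa1, and Apoc3 reached 570.5 ± 232 CPM per kb. Apoa5 (342 ± 85.1 CPM per kb) and Apob (311 ± 57.5 CPM per kb) differed by less than the SD of either, and Apoc3 exceeded Apoa5 by less than its own SD. Apoc2 stood at 128 ± 32.2, Apoa4 at 36.9 ± 35.7 and Mttp at 34.1 ± 4.90 CPM per kb, and the last pair differed by less than the SD of either. Among group means the order differed in places. In asparaginase mice at 2 weeks Apoe (5344 CPM per kb) stood above Apoa2 (4410.5), and Apoc3 (241) below Apoa5 (341) and Apob (275). Mttp stood above Apoa4 in PBS mice at 2 (29.7 against 18.2), 8 (34.5 against 20.1) and 16 weeks (36.8 against 28.1 CPM per kb). In asparaginase mice at 16 weeks Mttp (36.9) also stood above Apoa4 (35.6), and Apob (354.4) above Apoa5 (353.7). With the length of the longest transcript in place of merged exons, Apoe ranked above Apoa2 and Mttp above Apoa4. Together the 10 genes took between 2.68% and 3.60% of the counts at 2 weeks and between 1.52% and 2.77% in adults.

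**Figure D1:**
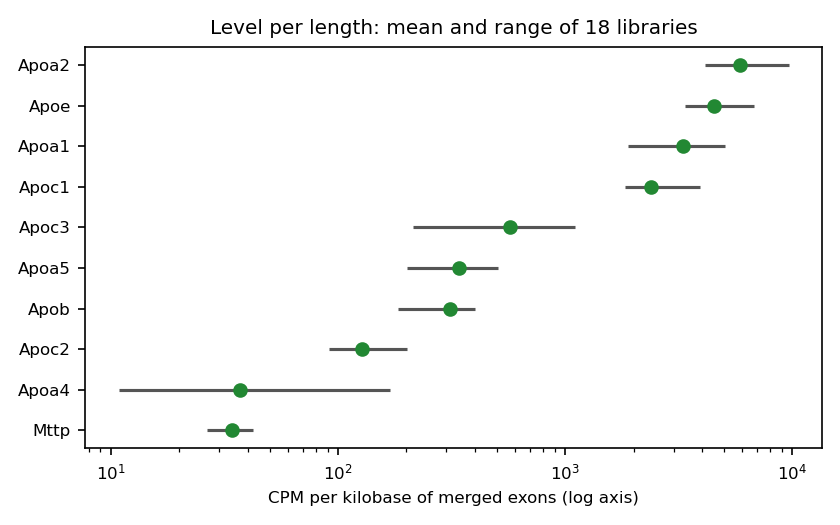
Level of each gene per kilobase of merged exons (CPM per kb, log axis); points are the mean of 18 libraries and lines the lowest to highest library. Apoa2 and Apoe lie highest and Mttp and Apoa4 lowest, and the line of Apoa4 is the longest, from 10.9 to 170 CPM per kb.

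Asparaginase was compared with PBS at each age and in the mean of the 3 ages. Averaged over the ages, Apoa4 rose 2.45-fold and Apoc3 fell, by 0.50 on the log2 scale, while the other 8 genes did not pass the test. Apoa4 encodes a triglyceride-carrying apolipoprotein made mostly in intestine and, in mice, in liver, and Apoc3 encodes an inhibitor of lipoprotein lipase and of remnant uptake. Both lie in the same cluster of apolipoprotein genes. The 2 of 10 genes called, 1 in each direction, compare with 5.41% of all 16213 genes tested, 2.55% higher and 2.86% lower (edgeR quasi-likelihood test, adjusted p under 0.05). Of these 2 calls, 0 were left without the 3 libraries of both sexes' transcripts (Apoa4 1.36, adjusted p 0.0674, and Apoc3 -0.51, adjusted p 0.0766) and 0 without asparaginase libraries 1 and 2 of 8 weeks (Apoa4 1.27, adjusted p 0.210, and Apoc3 -0.44, adjusted p 0.130). Without a sex term 1 was left, Apoc3, and the adjusted p of Apoa4 was 0.0832. At single ages 0 of the 10 passed at 2 weeks (0.432% of all genes), 0 at 8 weeks (0.364%) and 0 at 16 weeks (0.234%), with 3, 2 and 1 of them at an unadjusted p under 0.05, as were 2043, 2989 and 1842 of the 16213 genes tested. DESeq2 called 2, 0 and 0 of them at the 3 ages and limma-voom 1, 0 and 0. The median log2 fold change of the 10 genes was 0.06 at 2 weeks, -0.16 at 8 weeks, -0.18 at 16 weeks and -0.04 in the mean, against medians of all genes between -0.01 and 0.01.

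**Figure D2:**
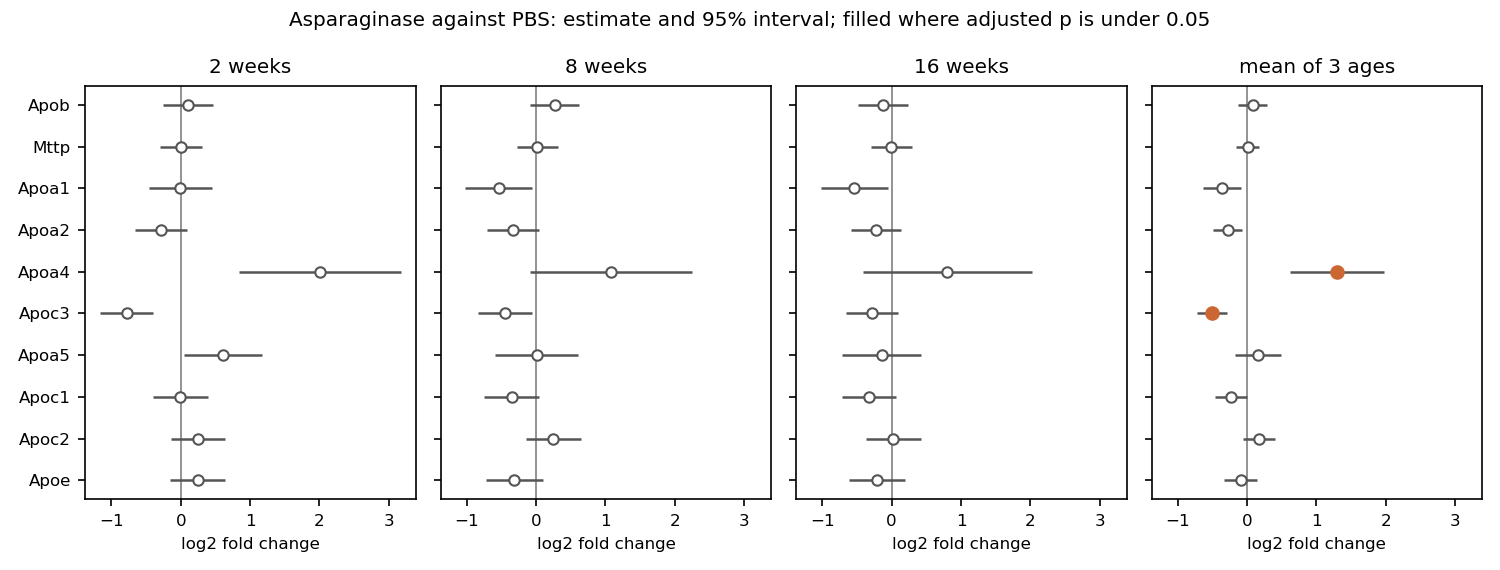
Log2 fold change of asparaginase against PBS for each gene at 2, 8 and 16 weeks and in the mean of the ages; points are estimates, lines 95% intervals, and filled points passed at an adjusted p under 0.05. The 2 filled points, Apoa4 (1.30) and Apoc3 (-0.50), are in the panel of the mean.

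Apoa4 (ENSMUSG00000032080; GRCm38 chromosome 9, 46240696 to 46243459, plus strand) stood at 19.7, 35.9 and 43.7 CPM under PBS at 2 weeks and at 309, 86.0 and 39.6 CPM after asparaginase. The first asparaginase library lay far above all the others, and the third lay within the PBS range. At 8 weeks the PBS libraries held 51.3, 34.8 and 23.2 CPM and the asparaginase libraries 94.4, 51.8 and 70.5 CPM, so that the groups did not overlap, although by a narrow margin. At 16 weeks the values were 67.2, 62.1 and 23.8 CPM under PBS and 48.3, 45.6 and 99.9 CPM under asparaginase, and the groups overlapped. By label the only female asparaginase library (99.9 CPM) lay above the female PBS libraries (67.2 and 62.1 CPM). The male asparaginase libraries (48.3 and 45.6 CPM) lay above the only male PBS library (23.8 CPM). This split by sex was made after the values were seen. The log2 fold change was 2.00 (SE 0.54, adjusted p 0.137) at 2 weeks, 1.08 (SE 0.54, adjusted p 0.307) at 8 weeks and 0.80 (SE 0.56, adjusted p 0.634) at 16 weeks. The mean over the ages was 1.30 (SE 0.31, 95% interval 0.61 to 1.98, adjusted p 0.0344).

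The call for Apoa4 rested on many libraries. It was lost without asparaginase library 1 of 2 weeks, where the mean effect was 0.81 (adjusted p 0.149). With the sex term kept for adults only, an alternative added after the data were seen, the mean without that library was 0.95 and passed (adjusted p 0.0391), and the effect at 2 weeks was 0.92. The call was also lost without PBS library 2 of 2 weeks (1.23, adjusted p 0.0659), PBS library 2 of 8 weeks (1.38, adjusted p 0.0600) and PBS libraries 1, 2 and 3 of 16 weeks (1.31, 1.29 and 1.24, adjusted p 0.0577, 0.0632 and 0.108). The same held without asparaginase libraries 1 and 3 of 8 weeks (1.21 and 1.27, adjusted p 0.142 and 0.0511) and asparaginase libraries 1 and 3 of 16 weeks (1.28 and 1.35, adjusted p 0.0627 and 0.124). The direction stayed upward without each of the 18 libraries, with mean effects between 0.81 and 1.79. At 2 weeks alone the estimate was 0.52 without asparaginase library 1 and 3.45 (adjusted p 0.00976) without PBS library 3. With the sex term, the first sets both female-labelled asparaginase libraries against PBS library 3 alone, and the second sets asparaginase library 1 alone against the male-labelled PBS libraries.

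Enterocytes make far more apolipoprotein A-IV than hepatocytes, so the enterocyte markers were read in the same libraries. At 2 weeks the 12 genes summed to 119, 135 and 133 CPM under PBS, against 166, 216 and 136 CPM after asparaginase, and the groups did not overlap. Anpep, Fabp2 and Lgals4, each present in all 18 libraries, made up most of these sums. Alpi, Lct and Sis, intestinal brush border enzymes, reached 24.0, 5.05 and 2.43 CPM in asparaginase library 2 of 2 weeks, where Apoa4 stood at 86.0 CPM. In asparaginase library 1, which held the 309 CPM of Apoa4, Alpi and Sis had 0 counts and Lct had 2 counts, while Fabp2 (69.5 CPM) and Lgals4 (30.9 CPM) were higher than in any other of the 18 libraries. Leaving out asparaginase library 2 gave a log2 fold change of Apoa4 of 2.14 at 2 weeks and 1.35 in the mean (adjusted p 0.0461). At 8 and 16 weeks the enterocyte sum overlapped between groups (113 to 165 CPM under asparaginase and 131 to 152 CPM under PBS at 8 weeks, 124 to 154 against 149 to 151 CPM at 16 weeks). Lgals4, which encodes an intestinal galectin and was singled out after its values were seen, did not overlap in adults. At 8 weeks its level was 15.0, 9.34 and 13.0 CPM under asparaginase and 8.16, 5.50 and 6.17 CPM under PBS. Its 16-week libraries held 17.0, 11.3 and 16.5 CPM under asparaginase and 8.15, 6.98 and 9.00 CPM under PBS. Fabp2, of the same list, went the other way in adults, lower under asparaginase without overlap. At 8 weeks Fabp2 stood at 40.1, 29.9 and 33.4 CPM under asparaginase and at 64.15, 52.1 and 54.2 CPM under PBS. At 16 weeks Fabp2 stood at 22.15, 21.8 and 35.85 CPM against 55.6, 39.6 and 49.15 CPM. In the mean of the ages 2 of the 6 enterocyte markers tested, Lgals4 and Treh, were called, both higher, against 5.41% of all genes (2.55% higher). Pancreatic acinar transcripts were also higher in each asparaginase library of 2 weeks: the sum over 12 acinar genes was 1293, 1694 and 596 CPM under asparaginase and 174, 184 and 75.8 CPM under PBS, and at 16 weeks 362.5, 13.5 and 4439 CPM under asparaginase and 12.8, 614 and 692 CPM under PBS. Their part in the results was not tested.

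Apoc3 (ENSMUSG00000032081; chromosome 9, 46232933 to 46235636, minus strand) stood at 417, 359 and 424 CPM in the 2-week PBS libraries and at 216, 262 and 254 CPM under asparaginase, and the groups did not overlap. At 8 weeks it stood at 1126, 664 and 724 CPM under PBS and at 559.8, 621 and 555 CPM under asparaginase, again without overlap. At 16 weeks the PBS libraries held 875, 814 and 700.2 CPM and the asparaginase libraries 596, 536 and 709 CPM, with only the highest asparaginase library reaching the PBS range. By label that library was the only female one of its group, and it lay below the female PBS libraries (875 and 814 CPM). The male asparaginase libraries (596 and 536 CPM) lay below the only male PBS library (700.2 CPM). This split by sex was made after the values were seen. The log2 fold change was -0.78 (SE 0.17, adjusted p 0.0745) at 2 weeks, -0.45 (SE 0.18, adjusted p 0.211) at 8 weeks and -0.28 (SE 0.17, adjusted p 0.583) at 16 weeks. The mean was -0.50 (SE 0.10, 95% interval -0.72 to -0.29, adjusted p 0.0161). Leaving out 1 library moved the 8-week value to between -0.73 (without PBS library 2) and -0.17 (without asparaginase library 1), and the 16-week value to between -0.31 and -0.25. With the sex term, the -0.73 sets asparaginase library 1 alone against the female-labelled PBS libraries. The -0.17 sets the male-labelled asparaginase libraries against PBS library 2 alone. At 2 weeks DESeq2 (adjusted p 0.00053) and limma-voom (adjusted p 0.0396) called the fall of Apoc3.

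The mean call of Apoc3 was lost without asparaginase library 1 of 2 weeks (-0.47, adjusted p 0.0796), PBS library 3 of 16 weeks (-0.50, adjusted p 0.0627), asparaginase library 1 of 8 weeks (-0.41, adjusted p 0.0687) and asparaginase library 3 of 16 weeks (-0.51, adjusted p 0.0658). Without PBS library 1 of 8 weeks, which held the 1126 CPM, the 2-week effect of -0.78 passed (adjusted p 0.0118) and the mean was -0.44 (adjusted p 0.00415). When libraries were scaled by their totals alone, the effect of Apoc3 shrank to -0.08 at 8 weeks, -0.03 at 16 weeks and -0.28 in the mean (adjusted p 0.0316). Under that scaling the median of all genes moved to 0.37, 0.25 and 0.22.

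**Figure D3:**
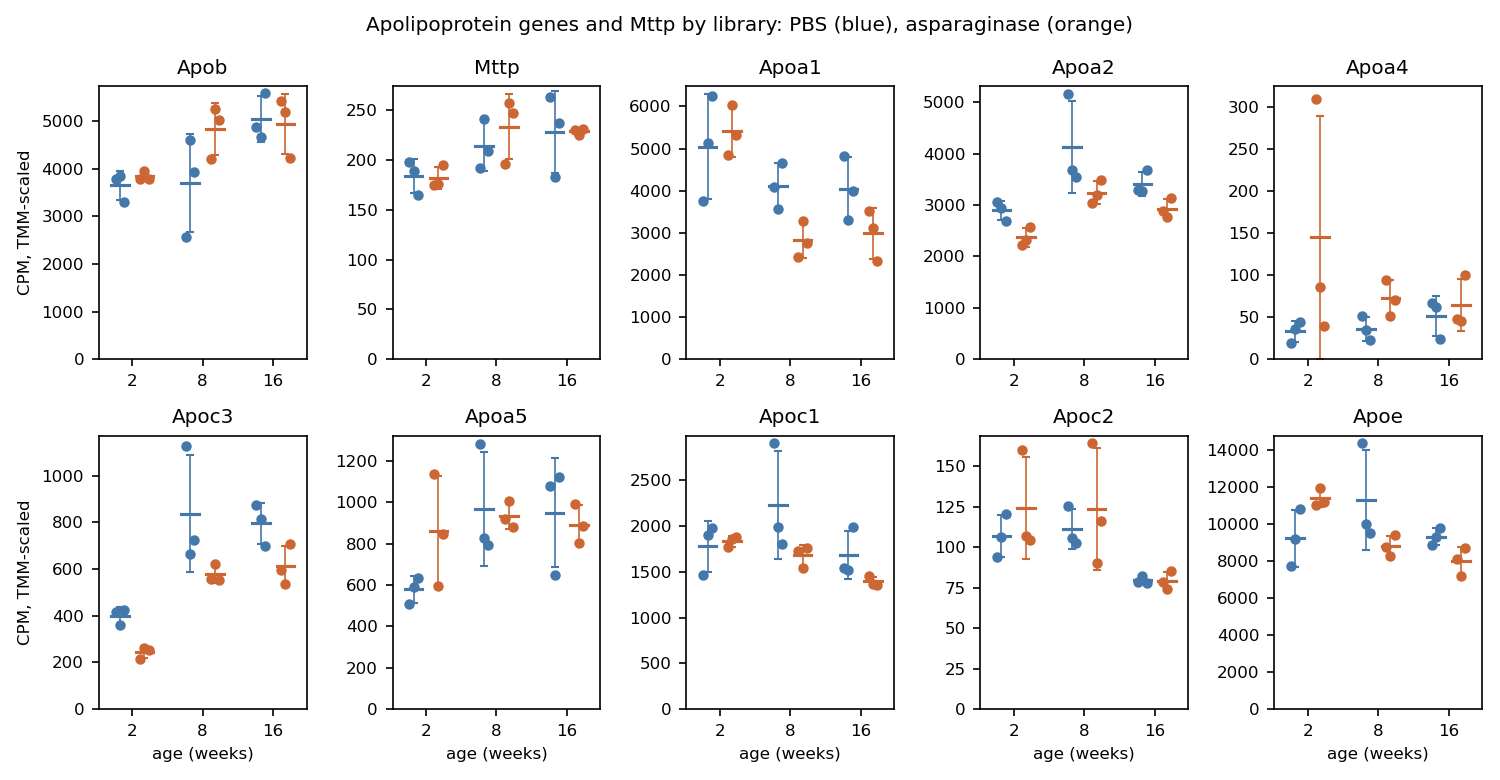
Level of each gene in every library (CPM, TMM-scaled, axes from 0) by age in weeks; points are libraries, horizontal bars the mean and vertical bars the SD of 3, with PBS in blue and asparaginase in orange. Apoc3 lies lower in every asparaginase library than in the PBS libraries at 2 and 8 weeks, and 1 asparaginase library of 2 weeks holds Apoa4 at 309 CPM.

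Apoa1, Apoc3, Apoa4 and Apoa5 lie within 43340 bases of chromosome 9, Apoc3 on the minus strand and the others on the plus strand. The gaps between neighbours are 2466 bases from Apoa1 to Apoc3, 5059 from Apoc3 to Apoa4 and 25173 from Apoa4 to Apoa5. Because neighbours of this cluster moved in opposite directions, the bases just before the starts of its plus-strand genes are shown, from RefSeq (GRCm38.p6): chr9:46228380-46228579 for Apoa1, chr9:46240594-46240695 for Apoa4 and chr9:46268358-46268607 for Apoa5, all on the plus strand. Apoc3 and Apoc1 had no entry. Capitals mark matches to 4 motifs, each searched on both strands: TATAAA (the TATA box), TGACCT (a nuclear receptor element), CACGTG (an E box) and TGATGNAA (the C/EBP-ATF composite element).
Apoa1: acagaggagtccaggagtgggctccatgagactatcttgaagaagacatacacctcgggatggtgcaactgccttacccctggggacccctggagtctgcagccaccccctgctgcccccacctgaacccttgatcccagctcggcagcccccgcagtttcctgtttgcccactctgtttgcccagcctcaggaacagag
Apoa4: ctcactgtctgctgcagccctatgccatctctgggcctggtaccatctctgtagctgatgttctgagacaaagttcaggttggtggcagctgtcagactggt
Apoa5: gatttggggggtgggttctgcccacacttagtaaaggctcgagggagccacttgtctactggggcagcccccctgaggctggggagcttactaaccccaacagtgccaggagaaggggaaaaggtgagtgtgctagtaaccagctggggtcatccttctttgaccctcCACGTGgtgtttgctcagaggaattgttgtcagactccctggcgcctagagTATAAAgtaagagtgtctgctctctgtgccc

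RefSeq held 2 promoter entries for Apoa5, and only the 1 with the lower start position was shown and searched. That Apoa5 window held 1 E box, which began 82 bases before its end, and 1 TATA box, 31 bases before its end. Of all 32851 RefSeq promoters, cut to the same length of 250 bases, 6.02% held the E box and 12.4% the TATA box. The windows of Apoa1 (200 bases) and Apoa4 (102 bases) held none of the 4 motifs. These windows were cut short before the GENCODE gene start, which lay upstream of the RefSeq start. The bases nearest the RefSeq start were therefore not searched in Apoa1 and Apoa4. The motifs were chosen after the values were seen, and a match is only a match of letters.

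Within a library, the ratio of Apoa4 to Apoc3 does not depend on how libraries are scaled. It stood at 4.73, 9.98 and 10.3 Apoa4 counts per 100 Apoc3 counts in the 2-week PBS libraries and at 143, 32.8 and 15.6 with asparaginase. At 8 weeks the ratio was 4.56, 5.24 and 3.20 with PBS and 16.9, 8.34 and 12.7 with asparaginase, and at 16 weeks 7.68, 7.63 and 3.40 against 8.11, 8.51 and 14.1. The groups did not overlap at any age, although at 16 weeks the nearest libraries were 7.68 and 8.11. This pair was formed after the values were seen, so the ratio is a description only. The ratio of Apoc3 to Apoa5 was also lower in each asparaginase library of 2 weeks (19.0, 43.8 and 30.1 Apoc3 counts per 100 Apoa5 counts) than in PBS (81.9, 60.9 and 66.7). At 8 weeks it was 61.0, 61.6 and 63.1 under asparaginase and 87.8, 80.2 and 91.4 under PBS, without overlap, and at 16 weeks 60.1, 66.8 and 80.2 against 81.1, 126 and 62.4, with overlap.

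**Figure D4:**
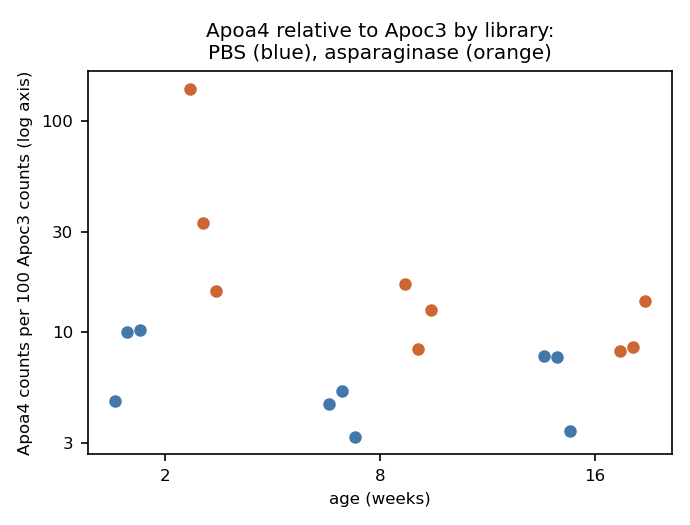
Apoa4 counts per 100 Apoc3 counts in each library (log axis) by age in weeks, PBS in blue and asparaginase in orange. Every asparaginase library lies above the PBS libraries of its age, and 1 library of 2 weeks reaches 143.

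Neither of the main HDL protein genes passed. Apoa1 (ENSMUSG00000032083; chromosome 9, 46228580 to 46230466) stood at 4089.6, 3566 and 4665 CPM in the 8-week PBS libraries and at 2437, 3282 and 2763 CPM under asparaginase, without overlap. At 16 weeks it stood at 4832, 3297 and 3996 CPM under PBS and at 3511, 3108 and 2334 CPM under asparaginase, with 1 PBS library inside the asparaginase range. By label the only female asparaginase library (2334 CPM) lay below the female PBS libraries (4832 and 3297 CPM). The male asparaginase libraries (3511 and 3108 CPM) lay below the only male PBS library (3996 CPM). This split by sex was made after the values were seen. At 2 weeks the values were 3758, 5119.9 and 6245 CPM under PBS and 4855, 6039 and 5325 CPM under asparaginase, and the log2 fold change lay between -0.46 and 0.46 (95% interval). The log2 fold change of Apoa1 was -0.54 (SE 0.22, adjusted p 0.228) at 8 weeks, -0.54 (SE 0.22, adjusted p 0.396) at 16 weeks and -0.36 (SE 0.13, adjusted p 0.118) in the mean. Without 1 library, the 8-week value lay between -0.85 (without PBS library 2) and -0.23 (without asparaginase library 1), and the 16-week value between -0.80 (without PBS library 3) and -0.27 (without asparaginase library 3). With the sex term, each of these fits rests on 1 library of a group. It is asparaginase library 1 and PBS library 2 at 8 weeks, and asparaginase library 3 and PBS library 3 at 16 weeks, in that order.

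Apoa2 (ENSMUSG00000005681; chromosome 1, 171225054 to 171226379) did not overlap between groups at any age. It stood at 3049.7, 2944 and 2688 CPM under PBS and 2216, 2326 and 2563 CPM under asparaginase at 2 weeks. At 8 weeks the values were 5164, 3687 and 3538 CPM against 3045, 3188 and 3481 CPM, and at 16 weeks 3299, 3265 and 3682 CPM against 2882, 2761 and 3130.2 CPM. Each asparaginase library was thus below each PBS library of its age by TMM-scaled CPM, with log2 fold changes of -0.29 (SE 0.17), -0.33 (SE 0.17) and -0.23 (SE 0.17), but by library totals the sign turned at 8 weeks (0.05) and 16 weeks (0.02). The mean was -0.28 (SE 0.10, adjusted p 0.117). DESeq2 called the mean falls of Apoa1 (-0.37, adjusted p 0.0168) and Apoa2 (-0.29, adjusted p 0.0169), which the edgeR test did not.

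Apoe, Apoc1 and Apoc2 lie within 27610 bases of chromosome 7, all on the minus strand. Apoe (ENSMUSG00000002985; 19696109 to 19699188), the ligand by which remnants bind receptors, differed in direction between ages. It stood at 7727, 9210.2 and 10816 CPM under PBS and at 11056, 11994 and 11225 CPM under asparaginase at 2 weeks, higher in all asparaginase libraries. At 8 weeks it stood at 14431, 10003 and 9535 CPM under PBS and at 8748, 8264 and 9407 CPM under asparaginase, and at 16 weeks at 8900.2, 9339 and 9779.9 CPM against 8119, 7201 and 8735 CPM, lower in all asparaginase libraries at both ages. The log2 fold changes were 0.24 (SE 0.19, adjusted p 0.687), -0.32 (SE 0.19, adjusted p 0.397) and -0.21 (SE 0.19, adjusted p 0.723). By library totals the adult values turned to 0.06 and 0.04. None of the 3 passed.

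Apoc1 (ENSMUSG00000040564; 19689481 to 19692660), an inhibitor of remnant clearance, stood at 2907, 1984 and 1805 CPM under PBS and at 1728, 1547 and 1761 CPM under asparaginase at 8 weeks. At 16 weeks it stood at 1545, 1518 and 1986 CPM against 1454, 1369.8 and 1361 CPM. The groups did not overlap at these ages, with log2 fold changes of -0.36 (SE 0.19, adjusted p 0.330) at 8 weeks, which turned to 0.03 by library totals, and -0.33 (SE 0.18, adjusted p 0.525) at 16 weeks. At 2 weeks Apoc1 ran from 1459.6 to 1977 CPM under PBS and from 1768 to 1876 CPM under asparaginase, with a difference smaller than its standard error. Apoc2 (ENSMUSG00000002992; 19671579 to 19677941), the cofactor that activates lipoprotein lipase, overlapped between groups at every age and ran from 74.2 to 164 CPM over all libraries. Its highest asparaginase libraries at 2 and 8 weeks were both library 1 (160.5 and 164 CPM), and its log2 fold changes of 0.25 (SE 0.18) and 0.25 (SE 0.18) turned to -0.19 and -0.02 without them. With the sex term, each of those values rests on 1 PBS library.

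Macrophages also make apolipoprotein E, so the Kupffer cell and macrophage markers are given beside Apoe and Apoc1. Their sum over 12 genes was 335, 280 and 272 CPM after asparaginase at 8 weeks and 692, 361 and 557 CPM in the 8-week PBS libraries, without overlap. At 2 weeks it ran from 518 to 628 CPM under asparaginase and from 451 to 641 CPM under PBS, and at 16 weeks from 542 to 747 CPM against 430 to 659 CPM. Of the 12 genes edgeR called 1 at 16 weeks, Marco, higher by 2.49 (SE 0.33, adjusted p 0.00587, with 0.234% of all genes called). In the mean it called 2 of the 12, against 5.41% of all genes. These were Marco, higher (0.71, adjusted p 0.0419), and Vsig4, lower (-0.39, adjusted p 0.0455). The erythroid markers had a negative median log2 fold change at every age (-0.90, -0.87 and -0.73, over 6 genes tested). Their sum over 7 genes did not overlap at 8 weeks (244 to 303 CPM under asparaginase against 505 to 548 CPM) but did at 2 weeks (358 to 718 against 568 to 1588 CPM) and 16 weeks (207 to 500.6 against 392 to 729 CPM). At 8 weeks the markers of stratified squamous epithelium were higher in asparaginase libraries 1 and 2 (844 and 444 CPM over 12 genes, against 7.56 CPM at most with PBS). At 16 weeks those of skeletal muscle (3.08 to 17.7 CPM under asparaginase against 41.1 to 239 CPM, over 10 genes) and adipocytes (2.36 to 6.52 against 12.2 to 28.7 CPM, over 6 genes) were lower, without overlap. These sums take no account of sex. At 8 weeks the median log2 difference of males from females was -0.55 for the macrophage, -0.10 for the erythroid and -1.92 for the squamous markers. At 16 weeks it was -0.85 for the skeletal muscle and -1.05 for the adipocyte markers. The part of these markers and of sex in the results was not tested. The hepatocyte sum overlapped between groups at each age. At 8 weeks all 7 hepatocyte markers had a log2 fold change below 0 (median -0.26), as had 7961 of the 16213 genes tested. Their median was 0.09 at 2 weeks and -0.07 at 16 weeks. Of the 7, only Ttr was called by edgeR. It was lower at 2 weeks (-0.80, adjusted p 0.0425, with 0.432% of all genes called) and in the mean (-0.41, adjusted p 0.0194, with 5.41%). The part of the hepatocyte markers was also not tested.

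Apoa5 (ENSMUSG00000032079; chromosome 9, 46268633 to 46271919), which promotes lipolysis by lipoprotein lipase, stood at 509, 589.7 and 636 CPM under PBS and 1136, 598 and 844 CPM under asparaginase at 2 weeks, and the groups overlapped. The log2 fold change was 0.61 (SE 0.26, adjusted p 0.342) there, and it was 0.17 without asparaginase library 1 and 1.02 without PBS library 3. With the sex term, the 0.17 rests on PBS library 3 alone and the 1.02 on asparaginase library 1 alone. In adults Apoa5 ran from 648 to 1283 CPM under PBS and from 802 to 1007 CPM under asparaginase, and neither adult difference exceeded its standard error.

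Of the genes of VLDL assembly, Mttp (ENSMUSG00000028158; chromosome 3, 138089854 to 138144968, minus strand) ran from 165 to 198 CPM under PBS and from 175 to 195 CPM under asparaginase at 2 weeks. It ran from 192 to 241 against 196 to 257 CPM at 8 weeks and from 183 to 264 against 225 to 231 CPM at 16 weeks. The 95% interval of its log2 fold change was -0.29 to 0.31 at 2 weeks, -0.28 to 0.32 at 8 weeks, -0.30 to 0.29 at 16 weeks and -0.17 to 0.18 in the mean, the narrowest of the 10 genes in each. Apob (ENSMUSG00000020609; chromosome 12, 7977648 to 8016835, plus strand) stood at 2566, 4592 and 3922 CPM under PBS and 4211, 5251 and 5011 CPM under asparaginase at 8 weeks, a log2 fold change of 0.27 (SE 0.16, adjusted p 0.399). At 2 and 16 weeks its difference was smaller than the standard error, with groups between 3307 and 3947 CPM and between 4213 and 5584 CPM. The mean for Apob lay between -0.12 and 0.29.

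By separation of the 3 libraries against 3, 3 of the 10 genes did not overlap at 2 weeks (Apoa2 and Apoc3 lower, Apoe higher), against 16.7% of all genes tested (8.09% higher and 8.64% lower). At 8 weeks 6 did not overlap, against 15.9% of all genes (7.29% higher and 8.57% lower): Apoa1, Apoa2, Apoc1, Apoc3 and Apoe were lower and Apoa4 higher. At 16 weeks 3 did not overlap, against 19.7% of all genes (10.1% higher and 9.63% lower): Apoa2, Apoc1 and Apoe, all lower. The genes of one particle share libraries and scaling, so these are not independent counts. The separations also take no account of labelled sex, which was unbalanced between the groups at every age.

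Whether the effect of asparaginase depended on age was tested directly. In the joint test of the 3 effects, 0 of the 10 genes and 0% of all genes passed, with 0 of the 10 and 1529 of all genes at an unadjusted p under 0.05. DESeq2 and limma-voom also called 0 of the 10 in this test. Between pairs of ages 0 of the 10 passed as well, against 0% of all genes for 8 and for 16 against 2 weeks and 0.0123%, all higher, for 16 against 8 weeks. The largest pairwise differences in size were those of Apoa4, whose effect differed by -0.92 (SE 0.75, adjusted p 0.744) at 8 weeks and by -1.20 (SE 0.77, adjusted p 0.902) at 16 weeks from that at 2 weeks. Their 95% intervals were -2.54 to 0.70 and -2.87 to 0.46. The effect of Apoa5 differed between 16 and 2 weeks by -0.76 (SE 0.37, adjusted p 0.814), and that of Apoc3 by 0.50 (SE 0.24, adjusted p 0.815).

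The levels in PBS mice were then compared between ages. Apoc3 rose from 400.1 ± 35.7 CPM at 2 weeks (mean ± SD, n = 3) to 838 ± 251 CPM at 8 weeks and 797 ± 88.9 CPM at 16 weeks. Apoa5 rose from 578 ± 64.3 to 968 ± 274 and 949.7 ± 263 CPM. Apoa2 rose to 8 weeks, from 2894 ± 186 to 4129.7 ± 899 CPM, and Apob rose to 16 weeks, from 3646 ± 296 to 5043 ± 481 CPM. Thus 3 of the 10 genes passed from 2 to 8 weeks (31.7% of all genes) and 3 from 2 to 16 weeks (27.8% of all genes), shares close to those of all genes. All those called were higher, as were 14.8% and 13.2% of all genes, with 16.9% and 14.5% lower. Both comparisons share the 2-week PBS libraries. Of the adipocyte markers 1 of 5 passed at 8 weeks and 5 of 5 at 16 weeks, all higher, and of the stellate cell markers 4 of 8 passed at each age, all lower. Of the erythroid markers 4 of 6 passed at 8 weeks (3 lower) and 2 of 6 at 16 weeks (1 lower), and the part of these markers in the results was not tested. By separation of the libraries, 3 of the 10 genes did not overlap from 2 to 8 weeks, all higher (35% of all genes, 16.4% higher and 18.6% lower), and 5 from 2 to 16 weeks, 4 higher and 1 lower (39.7% of all genes, 19.5% higher and 20.2% lower).

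For Apoc3 the log2 fold change was 0.99 (SE 0.17, adjusted p 0.00111) at 8 against 2 weeks and 0.91 (SE 0.17, adjusted p 0.0018) at 16 against 2 weeks, and both calls held without each of the 18 libraries. For Apoa5 it was 0.74 (SE 0.26, adjusted p 0.0467) and 0.77 (SE 0.26, adjusted p 0.0429). These calls were lost without 13 and 8 of the 18 libraries, with estimates between 0.51 and 1.09 and between 0.60 and 1.13. Those 13 were PBS libraries 1 and 2 and asparaginase libraries 1 and 3 of 2 weeks, PBS libraries 1 and 2 of 8 weeks, PBS library 3 of 16 weeks and all adult asparaginase libraries (adjusted p up to 0.156). The 8 were PBS libraries 1 and 2 of 2 weeks, PBS library 2 and asparaginase libraries 2 and 3 of 8 weeks, and PBS libraries 1 and 3 and asparaginase library 1 of 16 weeks (adjusted p up to 0.282).

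For Apoa2 the log2 fold change at 8 against 2 weeks was 0.50 (SE 0.17, adjusted p 0.0363), a call lost without 7 libraries (PBS libraries 2 and 3 and asparaginase library 2 of 2 weeks, PBS library 1 and all asparaginase libraries of 8 weeks), with estimates between 0.32 and 0.66 and adjusted p up to 0.256. For Apob at 16 against 2 weeks it was 0.53 (SE 0.16, adjusted p 0.0281), lost without PBS libraries 2 and 3 of 2 weeks or any PBS library of 16 weeks, with estimates between 0.42 and 0.57 and adjusted p up to 0.236. Scaled by library totals alone, the median of all genes moved to -0.72 at 8 weeks and -0.80 at 16 weeks, and these rises are relative to it. Under that scaling Apoc3 stayed upward (0.26 and 0.12, neither passing), whereas Apoa2 turned to -0.22 at 8 weeks, Apoa5 to -0.00093 and -0.03, and Apob to -0.26 at 16 weeks.

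Of the other genes at 16 against 2 weeks, Mttp stood at 0.33 (SE 0.13, adjusted p 0.0851), which turned to -0.46 by library totals, and Apoc2 at -0.42 (SE 0.18, adjusted p 0.0987). Apoc2 stood at 94.2, 106 and 120.4 CPM at 2 weeks and at 78.6, 82.6 and 78.1 CPM at 16 weeks, without overlap. Apoa1 stood at -0.34 (SE 0.21) at 8 weeks and -0.32 (SE 0.21) at 16 weeks, and Apoa4 and Apoe differed from 2 to 16 weeks by less than their standard errors. Between 8 and 16 weeks 0 of the 10 genes passed (0.413% of all genes), with 2 at an unadjusted p under 0.05 (2493 of the 16213 genes tested), Apob (0.45, SE 0.16, adjusted p 0.215) and Apoc2 (-0.44, SE 0.18, adjusted p 0.276). DESeq2 called 1 of them, Apob (adjusted p 0.0432), and limma-voom 0. These 2 genes were also those whose libraries did not overlap, Apob higher and Apoc2 lower (16.3% of all genes, 8.09% higher and 8.18% lower).

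**Figure D5:**
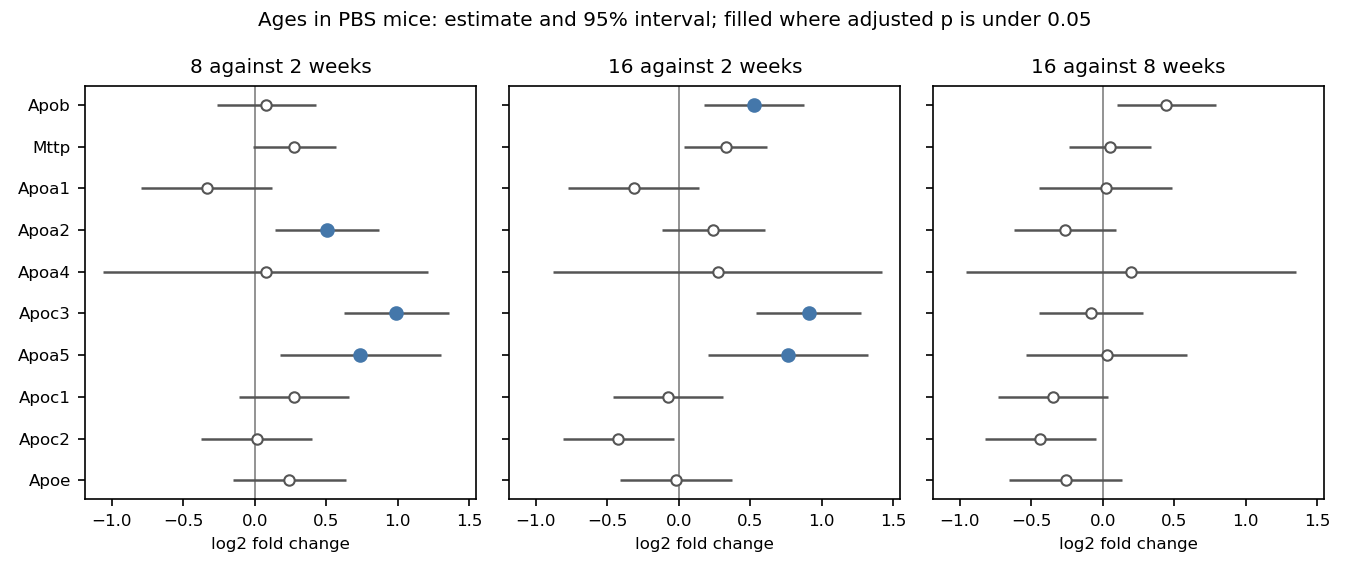
Log2 fold change between ages in PBS mice for each gene, with 95% intervals; filled points passed at an adjusted p under 0.05. Apoc3 and Apoa5 are filled in both comparisons with 2 weeks, Apoa2 at 8 weeks and Apob at 16 weeks, and no point is filled between 8 and 16 weeks.

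Between the labelled sexes of the adults, 0 of the 10 genes passed (12.9% of all genes), with 1 at an unadjusted p under 0.05 (4896 of the 16213 genes tested). Apob was higher in males by 0.34 on the log2 scale (SE 0.12, adjusted p 0.0741), a difference that DESeq2 (adjusted p 0.00971) and limma-voom (adjusted p 0.0484) called and that turned to -0.18 by library totals, under which the median of all genes was -0.53. The difference of males from females was -0.81 for Apoa4 (SE 0.39, adjusted p 0.178) and -0.25 for Apoc3 (SE 0.12, adjusted p 0.192).

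Genes that act with the 10 were read from lists of the pathway. Among 26 partners of VLDL assembly and secretion, 1 passed at 2 weeks (0.432% of all genes), 0 at 8 weeks (0.364%) and 1 at 16 weeks (0.234%), both times Soat2, which esterifies cholesterol for the particle core. Soat2 rose from 37.7, 38.2 and 33.0 CPM to 96.4, 56.2 and 59.0 CPM at 2 weeks (log2 fold change 1.08, SE 0.18, adjusted p 0.0205). At 16 weeks it rose from 25.9, 25.1 and 28.8 CPM to 66.0, 51.6 and 56.8 CPM (1.09, SE 0.18, adjusted p 0.0283). At 8 weeks it stood at 36.9, 25.6 and 28.0 CPM under PBS and at 32.4, 46.8 and 37.9 CPM under asparaginase, and the groups overlapped. Its mean effect of 0.84 (SE 0.11, adjusted p 0.00146) passed without each of the 18 libraries. The 2-week call was lost without PBS library 1 or 2 or asparaginase library 1 of that age, and the 16-week call without any PBS library or asparaginase library 1 or 3 of that age, with estimates between 0.80 and 1.32 and between 1.02 and 1.17.

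In the mean of the ages 4 of the 26 partners passed, 2 in each direction, against 5.41% of all genes (2.55% higher and 2.86% lower). Besides Soat2, Lpcat3, which makes the polyunsaturated phospholipids of the particle surface, rose by 0.52 (SE 0.11, adjusted p 0.0185). It was lost without the same 4 libraries as Apoc3 (asparaginase library 1 of 2 weeks, PBS library 3 of 16 weeks, asparaginase library 1 of 8 weeks and asparaginase library 3 of 16 weeks), with estimates between 0.45 and 0.57. Tmem41b, an endoplasmic reticulum lipid scramblase, fell by 0.40 (SE 0.09, adjusted p 0.0264) and Aadac, a microsomal lipid esterase, fell by 0.30 (SE 0.08, adjusted p 0.0445). The call of Tmem41b was lost without asparaginase library 1 or 3 of 2 weeks, asparaginase library 1 of 8 weeks, PBS library 3 of 16 weeks or asparaginase library 1 or 3 of 16 weeks. That of Aadac held only without PBS library 1 or 3 or asparaginase library 2 of 2 weeks, or PBS library 1 or 3 of 8 weeks. Neither passed by library totals (-0.18 and -0.08). The median of the 26 was -0.05.

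Of 36 regulators of apolipoprotein genes, 1 passed at 2 weeks, 0 at 8 weeks and 1 at 16 weeks, beside the same shares of all genes, both times Atf5, a transcription factor of the amino acid response. Atf5 rose from 113, 132 and 177 CPM to 751, 629 and 404 CPM at 2 weeks (2.08, SE 0.32, adjusted p 0.017) and from 106, 93.0 and 74.6 CPM to 344, 219 and 441 CPM at 16 weeks (2.03, SE 0.33, adjusted p 0.0258). Its calls at these ages were lost without the same libraries as those of Soat2, with estimates between 1.54 and 2.59 and between 1.90 and 2.17. In the mean 4 passed, against 5.41% of all genes: Atf5 rose by 1.43 (SE 0.20), without any library left out ending the call. Its effects at 2 and 16 weeks both far exceeded that mean, so its 8-week effect was by far the smallest and lay well below the mean. The mean rise therefore does not stand for a rise at 8 weeks, where Atf5 was not called. Rora, a nuclear receptor of lipid metabolism, rose by 0.31 (SE 0.08). Srebf1, which drives lipogenic genes, fell by 0.82 (SE 0.14), and Nr0b2, a nuclear receptor corepressor, fell by 0.59 (SE 0.14). Srebf1 stood at 147, 89.9 and 103 CPM under PBS and at 45.7, 66.4 and 70.8 CPM under asparaginase at 2 weeks. It lost its call only without asparaginase library 1 of 2 weeks (estimates between -0.95 and -0.69). The call of Nr0b2 was lost without any PBS library or asparaginase library 1 or 3 of 2 weeks, PBS library 2 of 8 weeks, or PBS library 2 or 3 or asparaginase library 1 or 3 of 16 weeks, and by library totals (-0.39, adjusted p 0.0501). That of Rora held only without PBS library 1 or 3 of 8 weeks. The median of the 36 in the mean was -0.00.

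Of 19 tested genes of other apolipoproteins and HDL factors, 0 passed at each age and 1 in the mean, close to the 5.41% of all genes. That gene was Apof, an inhibitor of cholesteryl ester transfer, which fell by 0.46 (SE 0.08, adjusted p 0.0103). At 8 weeks it stood at 528, 404 and 431 CPM under PBS and 314, 272 and 303 CPM under asparaginase. Its call was lost without asparaginase library 1 of 2 weeks or asparaginase library 3 of 16 weeks, with estimates between -0.53 and -0.40, and by library totals (-0.24, adjusted p 0.0538). In the mean 16 of the 19 had a negative log2 fold change, as had 7962 of the 16213 genes tested. The median of the 19 was -0.23, and scaling by library totals moves the median of all genes to 0.22. Of 17 receptor and clearance genes 0 passed at each age and 1 in the mean, again close to that share. It was Pcsk6, a proprotein convertase, which rose by 0.28 (SE 0.07, adjusted p 0.0498), a call that held only without PBS library 1 of 2 weeks, PBS library 3 of 16 weeks or asparaginase library 2 of 16 weeks. At single ages these 2 lists held between 0 and 6 genes at an unadjusted p under 0.05, beside 2043, 2989 and 1842 of the 16213 genes tested at 2, 8 and 16 weeks.

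Between 2 and 8 weeks in PBS mice, 6 of 26 assembly partners passed, all higher, and at 16 weeks 10, of which 9 were higher. Of all genes 31.7% and 27.8% passed in these comparisons, so the counts of the 4 lists are a description and say nothing particular to them. Mia2, a receptor for large cargo at endoplasmic reticulum exit sites, rose by 0.73 (SE 0.13) and 0.84 (SE 0.13), or 0.01 and 0.05 by library totals, and Cideb, which supports VLDL lipidation, rose by 0.54 (SE 0.09) at 8 weeks, a rise that turned to -0.18 by library totals. Of the 36 regulators 11 passed at 8 weeks (7 higher) and 15 at 16 weeks (13 higher). Cebpa rose by 0.66 (SE 0.12) and 0.85 (SE 0.12), the first turning to -0.05 by library totals, and Ppargc1a, a coactivator of fasting metabolism, fell by 1.57 (SE 0.24) and by 1.74 (SE 0.25). Of the 19 other apolipoproteins and HDL factors 7 passed at each age, with 5 higher. Scarb1, the HDL receptor, fell by 0.82 (SE 0.15) at 8 weeks, and Pltp, the phospholipid transfer protein, rose by 1.17 (SE 0.20) at 8 weeks and stood lower at 16 than at 8 weeks, with a log2 fold change of -1.56 (SE 0.20), the only gene of the 4 lists that passed between those ages. That last call was lost without PBS library 3 of 16 weeks, with estimates between -1.85 and -1.39. Of the 17 receptor and clearance genes 6 passed at 8 weeks (4 higher) and 7 at 16 weeks (4 higher), among them Lrp5, a receptor of the low density lipoprotein receptor family, which fell by 1.15 (SE 0.20) at 16 weeks.

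By sex in adults, 2 of 26 assembly partners, 1 of 19 other apolipoproteins and HDL factors, 3 of 17 receptor and clearance genes and 2 of 36 regulators passed, against 12.9% of all genes. Tm6sf2, an endoplasmic reticulum protein needed for VLDL lipidation, was lower in males, with a log2 difference of -0.69 (SE 0.13, adjusted p 0.0052). The receptor genes Sorl1 and Vldlr were also lower in males, with differences of -1.49 (SE 0.20) and -1.89 (SE 0.31). These 3 calls held without each of the 18 libraries.

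The gene of the 10 whose group means ranged most was Apoc3, by 1.74 on the log2 scale, followed by Apoa4 at 1.70, and Mttp ranged least, by 0.35. Over the 18 libraries the genes whose centred log2 CPM lay closest to that of Apoc3, among 12966 genes with a mean of at least 1 CPM, were Haao, Cd1d2, Cd1d1, Gpx1 and Igfals. Their root mean square differences from Apoc3 were 0.22, 0.22, 0.23, 0.23 and 0.24, against a median of 0.68 over all genes and 0.63 for a flat profile. Haao, an enzyme of tryptophan breakdown, stood between 90.5 and 125 CPM after asparaginase at 2 weeks, between 128.5 and 200.3 CPM under PBS at that age and between 225 and 410.4 CPM in adults. Cd1d1 and Cd1d2 are near-identical copies whose reads may have been split between them, so they are uncertain as separate genes.

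Reads from overlapping genes could touch a few of the counts, since the use of strand in counting is not given in the sources used here. Exons of Mttp overlap those of Trmt10a on the other strand by 457 bases, with 2438 counts for Trmt10a over all libraries. Exons of Apoa4 overlap the antisense gene Gm10680 by 632 bases, and Gm10680 had 0 counts.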

How the data were processed

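RNA of mouse liver was measured by RNA-seq in 18 libraries. The authors deposited one table of raw read counts per gene, 37315 genes, in whole numbers. Per the submitters' processing notes, TopHat, TopHat2 2.0.9, DESeq2, GRCm38 and mm10 were named, without their roles. How reads were assigned to genes, and whether strand was used, is not given in the sources used here. Groups come from the sample titles.

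From these counts, genes were kept by edgeR's filter (minimum count 10, minimum total 15), which left 16213. Libraries were scaled by TMM, and log2 fold changes were fitted with the quasi-likelihood test of edgeR 4.0.16 (R 4.3.3) on all 18 libraries, with 1 term per group and the labelled sex as a term within each age. P-values were adjusted by Benjamini-Hochberg over all genes tested, with a threshold of 0.05. DESeq2 1.42.0, limma 3.58.1, other scalings and filters, other sex terms and left-out libraries were alternatives. On simulated data with 200 changed genes, the 2-week comparison recovered 57% of log2 changes of 1 and 82% of changes of 2, and the mean of the ages 81% and 93%, over 16213 genes. Depth was 24690871 to 46949361 counts per library. Positions are from GENCODE M21 (GRCm38).

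All 10 genes were named in each comparison. Of the pathway lists, genes past the threshold under asparaginase were named, and for ages and sexes some of the 4 with the smallest p in each direction. The genes and lists were chosen with earlier results of these data known, and the ratios and promoter motifs after the values were seen.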

Additional observations from a re-analysis of the deposited data

Results flagged for a closer look

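The effect of asparaginase on Apoe had opposite directions at 2 weeks and in adults: all 3 asparaginase libraries lay above the PBS libraries at 2 weeks and all 3 lay below them at 8 and at 16 weeks. The effect at 8 weeks minus that at 2 weeks was -0.56 on the log2 scale (SE 0.27, unadjusted p 0.056, adjusted p 0.541, edgeR quasi-likelihood test). The effect at 16 weeks minus that at 2 weeks was -0.45 (SE 0.26, unadjusted p 0.109, adjusted p 0.887). Neither difference passed. By library totals alone the adult effects turned to 0.06 and 0.04. The sum of the macrophage markers given beside Apoe was lower in each asparaginase library at 8 weeks but overlapped between groups at 2 and 16 weeks.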

How the results depend on the processing

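No paired analysis was possible because replicate numbers follow the order of the samples and pair no mice. Of the 10 genes, the number called at 2 weeks was 2 by DESeq2 and 1 by limma-voom, at 8 weeks 1 by library totals (Apob, 0.62), and at 16 weeks 1 with the 6 libraries of that age alone (Apoa4, 0.81). In the mean it was 4 by DESeq2, 1 without a sex term, 1 with the 3 libraries of both sexes' transcripts given a sex code of 0, 0 without those libraries, 0 without asparaginase libraries 1 and 2 of 8 weeks, and 0 at an adjusted p of 0.01. From 2 to 8 and from 2 to 16 weeks it was 6 and 6 by library totals and 1 and 1 without those 3 libraries, without asparaginase libraries 1 and 2 of 8 weeks, or at an adjusted p of 0.01, and from 2 to 16 weeks 1 without a sex term. From 8 to 16 weeks DESeq2 called 1. Between the sexes DESeq2 called 1, limma-voom 1 and library totals 9.

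Leaving out each library in turn gave 0 to 1 genes called at 2 weeks, 0 to 0 at 8 and 16 weeks, 0 to 2 in the mean, 0 to 0 for differences between ages, 1 to 3 and 1 to 4 for the comparisons with 2 weeks, 0 to 0 from 8 to 16 weeks and 0 to 1 between the sexes. Directions reversed for Apoc2 at 2 weeks (-0.191, in a range of -0.191 to 0.651) and 8 weeks (-0.022, in a range of -0.022 to 0.527) without asparaginase library 1 of that age, and at 2 weeks (-0.0191) also with the sex term in adults only, an alternative chosen after seeing the data.

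By library totals alone, directions reversed at 8 weeks for Apoa2 (0.0488), Apoc1 (0.0277) and Apoe (0.0645), and at 16 weeks for Apoa2 (0.0226) and Apoe (0.043). From 2 to 8 weeks they did for Apoa2 (-0.22), Apoa5 (-0.00093), Apoc1 (-0.46), Apoe (-0.49), Mttp (-0.43), Pcsk6 (-0.0443), Furin (-0.35), Cebpa (-0.0508) and Cideb (-0.18). From 2 to 16 weeks they did for Apoa2 (-0.55), Apoa5 (-0.0302), Apob (-0.26), Mttp (-0.46), Pcsk6 (-0.12) and Ext1 (-0.45). Between the sexes they did for Apob (-0.18), Mttp (-0.34), Ext1 (-0.29), Rora (-0.11), Thrb (-0.24) and Vmp1 (-0.0251). This scaling moved the calls over all genes from 31 higher and 28 lower to 3087 and 24 at 8 weeks, from 31 and 7 to 177 and 1 at 16 weeks, and from 53 and 17 to 25 and 2 at 2 weeks. In the mean they moved from 413 and 464 to 4165 and 118, from 2 to 8 weeks from 2394 and 2743 to 394 and 11545, and from 2 to 16 weeks from 2147 and 2354 to 357 and 11962. From 8 to 16 weeks they moved from 29 and 38 to 10 and 31, and between the sexes from 789 and 1301 to 153 and 12098.

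Calls over all genes at 2, 8 and 16 weeks and in the mean were 70, 59, 38 and 877. DESeq2 gave 432, 659, 322 and 1525, with 550 from 8 to 16 weeks against 67, and 155 in the joint test against 0, where limma-voom gave 1. Limma-voom gave 169 at 2 weeks. With no filter there were 114, 445 and 83 at the 3 ages, 28 in the joint test and 171 from 8 to 16 weeks, and without a sex term 6, 2, 19 and 528. A sex term in adults only gave 33 at 2 weeks and 1 in the joint test. The sex code of 0 gave 23 and 150 at 2 and 8 weeks. Without the 3 libraries there were 0, 0 and 97 at 2 weeks, 8 weeks and in the mean, and 3243 from 2 to 8 weeks against 5137. Without asparaginase libraries 1 and 2 of 8 weeks there were 30, 0 and 87, with 40 from 8 to 16 weeks and 528 between the sexes against 2090. The libraries of each age alone gave 1, 0 and 71. An adjusted p of 0.01 gave 11, 0, 15 and 167, with 2705, 2403 and 3 between ages and 572 between the sexes. The added alternative gave 7 at 2 weeks, 367 in the mean, 3 in the joint test and 32 from 8 to 16 weeks. The cause of these moves was not tested. The lowest count of any of the 10 genes in a library was 666, with 3 libraries per group. What limits precision was not tested.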
